A study of Mus musculus with 4 samples.

Results

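Integrins and tetraspanins, as defined here, are the 18 alpha chain genes, 7 beta chain genes and 24 tetraspanin genes whose symbols match the naming patterns of these families (Itga, Itgb and Tspan followed by their number or letter), with Cd9, Cd37, Cd53, Cd81, Cd82 and Cd151 added by name. That gave 49 of 15881 genes. The genes were chosen by name and not by any measured value, but with earlier results of these data known. All 49 had values in stimulated cells and 48 in unstimulated cells, Tspan15 having values in stimulated cells only.

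Integrins are membrane receptors built of an alpha and a beta chain that bind matrix proteins or receptors on other cells, and they are switched on from inside the cell when talin and kindlin bind the tail of the beta chain. Tetraspanins are small proteins that span the membrane several times and gather integrins, proteases and immune receptors into microdomains. Dendritic cells carry integrins of the beta2 family, and the alpha chain encoded by Itgax (CD11c) is the usual surface marker by which mouse dendritic cells are recognised. The integrins serve adhesion, migration and the uptake of complement-coated particles, and several tetraspanins act at the surface where antigen is presented.

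The cells were bone marrow-derived dendritic cells from C57BL/6 mice, 8 weeks old, and strand-specific mRNA libraries were sequenced. The stimulated KO library came from GOLPH2-/- cells kept with IFN-gamma for 16 h, after which LPS, a bacterial cell wall component, was added for 4 h, and the stimulated WT library from wild-type cells treated likewise. The unstimulated KO and the unstimulated WT library came from cells of the same genotypes without either agent. Golm1 encodes GOLPH2, which sits in the membrane of the Golgi. Each of the 4 groups had 1 library, the sources used here do not give the number of mice behind a library, and nothing ties a stimulated library to the mice of an unstimulated one. All errors below are therefore counting errors, and all p-values compare a pair of libraries and not the conditions.

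Reads of the listed genes were solved from the authors' ratios and p-values, as described below. They came to 34776396 in stimulated KO and 35745904 in stimulated WT cells, and to 37517390 in unstimulated KO and 32736078 in unstimulated WT cells. At the smallest p the authors deposited stood 50 genes in stimulated and 51 in unstimulated cells, entered at their lowest possible reads. For 3 genes of unstimulated cells no reads were recovered. Golm1 stood at 25.0% of WT in stimulated KO cells (190 reads against 779) and at 23.5% in unstimulated KO cells (226 reads against 842, the lowest numbers that the authors' capped p allows). Genes are called here at an adjusted p under 0.001, by Benjamini-Hochberg over all genes of a table, from the authors' deposited p-values. Of the dendritic cell markers, 6 of 12 were called higher and 0 lower in KO cells in each state. Of all genes with 100 reads or more over both libraries, 16.2% were called in either direction in stimulated and 12.2% in unstimulated cells. Small ratios were called at many reads, such as Cd74 at 105.9% of WT in stimulated and 102.7% in unstimulated KO cells. Of 11 macrophage markers, 5 were called higher and 2 lower in stimulated cells, and 7 higher and 2 lower in unstimulated cells. Their summed level was nevertheless lower in KO cells. After stimulation it was 3283 reads per 1000000 reads of listed genes (RPM) in KO and 3401 RPM in WT cells. Without stimulation it was 3140 RPM in KO and 3464 RPM in WT cells. Cd14, called lower, was at 83.0% of WT in stimulated and 70% in unstimulated KO cells. Its p is capped in both states, so its reads in these sums are the lowest possible. The dendritic cell markers Flt3 and Zbtb46 were detected in all 4 libraries. Stromal markers summed to 136 RPM in KO and 81.9 RPM in WT cells after stimulation, and to 108 RPM in KO and 80.1 RPM in WT cells without it. Thy1 had the most reads of this list, at 2525 in KO and 1942 in WT cells after stimulation. Without stimulation it had 2886 reads in KO and 1913 in WT cells. Of the 14 stromal genes, 8 were called higher and 1 lower after stimulation, and 5 higher and 0 lower without it. Neutrophil markers summed to 412 RPM in KO and 457 RPM in WT cells after stimulation, and to 307 RPM in KO and 380 RPM in WT cells without it. In both states Lcn2 had the most reads of this list, at 10298 in KO and 12439 in WT cells after stimulation. There the ratios of Mmp8, Mmp9 and Cxcr2 lay above 0 without a call, at 0.067, 0.16 and 0.24. Those of S100a8, Camp, Ltf, Lcn2 and Mpo lay below 0, of which Lcn2 was called. Since these are bulk libraries, a difference in the number of cells of a type and one in RNA per cell cannot be told apart.

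The promoters of 4 members are shown because the results turn on them: Itgax and Cd53 had the lowest adjusted p-values among the members higher in KO cells, Cd81 the lowest ratio called in both states, and Itgb8 the largest response to stimulation. Each runs from 250 bases before to 50 bases after the annotated start, on the gene's own strand, in RefSeq's GRCm38.p6. For Itgax that start lies inside the gene coordinates given further below, and not at their first base. They lie at chr7:128129300-128129599 (plus strand) for Itgax, chr3:106790100-106790399 (minus strand) for Cd53, chr7:143052500-143052799 (plus strand) for Cd81 and chr12:119238227-119238526 (minus strand) for Itgb8. Capitals mark GAGGAA on either strand (TTCCTC on the other strand), the core bound by the myeloid factor PU.1, and TATAAA on the gene's strand.
Itgax: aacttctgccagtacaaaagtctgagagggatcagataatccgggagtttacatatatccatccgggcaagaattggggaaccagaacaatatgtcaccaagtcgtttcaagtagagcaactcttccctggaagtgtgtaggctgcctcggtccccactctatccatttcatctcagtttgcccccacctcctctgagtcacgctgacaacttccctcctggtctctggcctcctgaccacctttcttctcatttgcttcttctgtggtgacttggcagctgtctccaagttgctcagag
Cd53: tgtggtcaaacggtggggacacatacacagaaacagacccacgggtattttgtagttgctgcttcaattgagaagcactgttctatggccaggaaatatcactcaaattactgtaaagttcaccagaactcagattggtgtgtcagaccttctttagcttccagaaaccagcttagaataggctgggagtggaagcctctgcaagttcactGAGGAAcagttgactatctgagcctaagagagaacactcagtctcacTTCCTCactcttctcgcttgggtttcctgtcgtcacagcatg
Cd81: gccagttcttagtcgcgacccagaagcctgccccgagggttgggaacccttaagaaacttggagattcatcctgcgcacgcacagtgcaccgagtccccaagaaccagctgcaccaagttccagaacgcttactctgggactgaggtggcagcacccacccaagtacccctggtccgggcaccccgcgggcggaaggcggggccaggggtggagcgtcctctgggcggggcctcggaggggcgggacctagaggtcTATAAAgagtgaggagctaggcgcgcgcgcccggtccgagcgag
Itgb8: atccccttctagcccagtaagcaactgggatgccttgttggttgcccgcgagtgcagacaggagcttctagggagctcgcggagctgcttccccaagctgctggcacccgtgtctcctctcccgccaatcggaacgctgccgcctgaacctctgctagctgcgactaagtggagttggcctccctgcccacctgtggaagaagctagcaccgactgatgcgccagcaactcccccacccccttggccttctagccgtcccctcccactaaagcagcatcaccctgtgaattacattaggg
The Cd53 window holds GAGGAA at 2 places, beginning 39 bases upstream and 8 bases downstream of the start, and the Cd81 window holds TATAAA beginning 6 bases downstream of it. The Cd81 window is rich in G and C, at 65.7% of its bases, against 60.7% for Itgb8, 50% for Itgax and 46.3% for Cd53. GAGGAA was found in 13 of the 40 members with a promoter in the table (32.5%), against 28.3% of all 27025 promoters of the same length. TATAAA was found in 1 of the 40, Cd81, against 8.88% of all promoters. Of elements bound by interferon-activated factors, the interferon-stimulated response element (GAAA, any 2 bases, GAAA, on either strand) was found in 2 of the 40 members, Itga2b and Itga3, against 3.49% of all promoters. The gamma-activated site (TTCNNNGAA on either strand) was found in 1 of the 40, Itga10, against 8.47% of all promoters. These are matches of letters in a fixed window, not sites of binding.

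The levels of the members spanned a wide range, and the highest 4 were the same, in the same order, in every library. Levels are compared between genes per length, as RPM divided by the kilobases of exon (RPKM). Cd53, a tetraspanin found across leukocytes, led at 642 RPKM in KO and 531 RPKM in WT cells after stimulation, and at 690 RPKM in KO and 646 RPKM in WT cells without it. Next came Itgb2, the shared beta chain of the leukocyte integrins, at 345 RPKM in KO and 344 RPKM in WT cells after stimulation, and at 363 RPKM in KO and 368 RPKM in WT cells without it. Cd9 and Itgb1 followed in that order in all 4 libraries. The fifth place was held by Itga5, the fibronectin receptor chain, in both stimulated libraries and by Itgam (CD11b) in both unstimulated ones. At 10 RPKM or more stood 19 members in the stimulated KO library, 19 in the stimulated WT library and 21 in each unstimulated library. The dendritic cell marker Itgax was at 99.4 RPKM in stimulated KO and 81.4 RPKM in stimulated WT cells, and at 120 RPKM in KO and 96.0 RPKM in WT cells without stimulation. The integrin that defines the labelled cell type was thus among the 8 members with the highest levels in every library.

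At the other end, 15 members had fewer than 50 reads in every library: Itga2, Itga7, Itga8, Itga9, Itga11, Itgad, Itgae, Itgb4, Tspan6, Tspan8, Tspan9, Tspan10, Tspan12, Tspan15 and Tspan18. Among them are chains of collagen and laminin receptors that serve mainly stromal and epithelial cells, and Itgae, the alphaE chain (CD103) carried by a migratory subset of dendritic cells. At this depth, differences in these 15 were mostly not detectable.

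**Figure D1:**
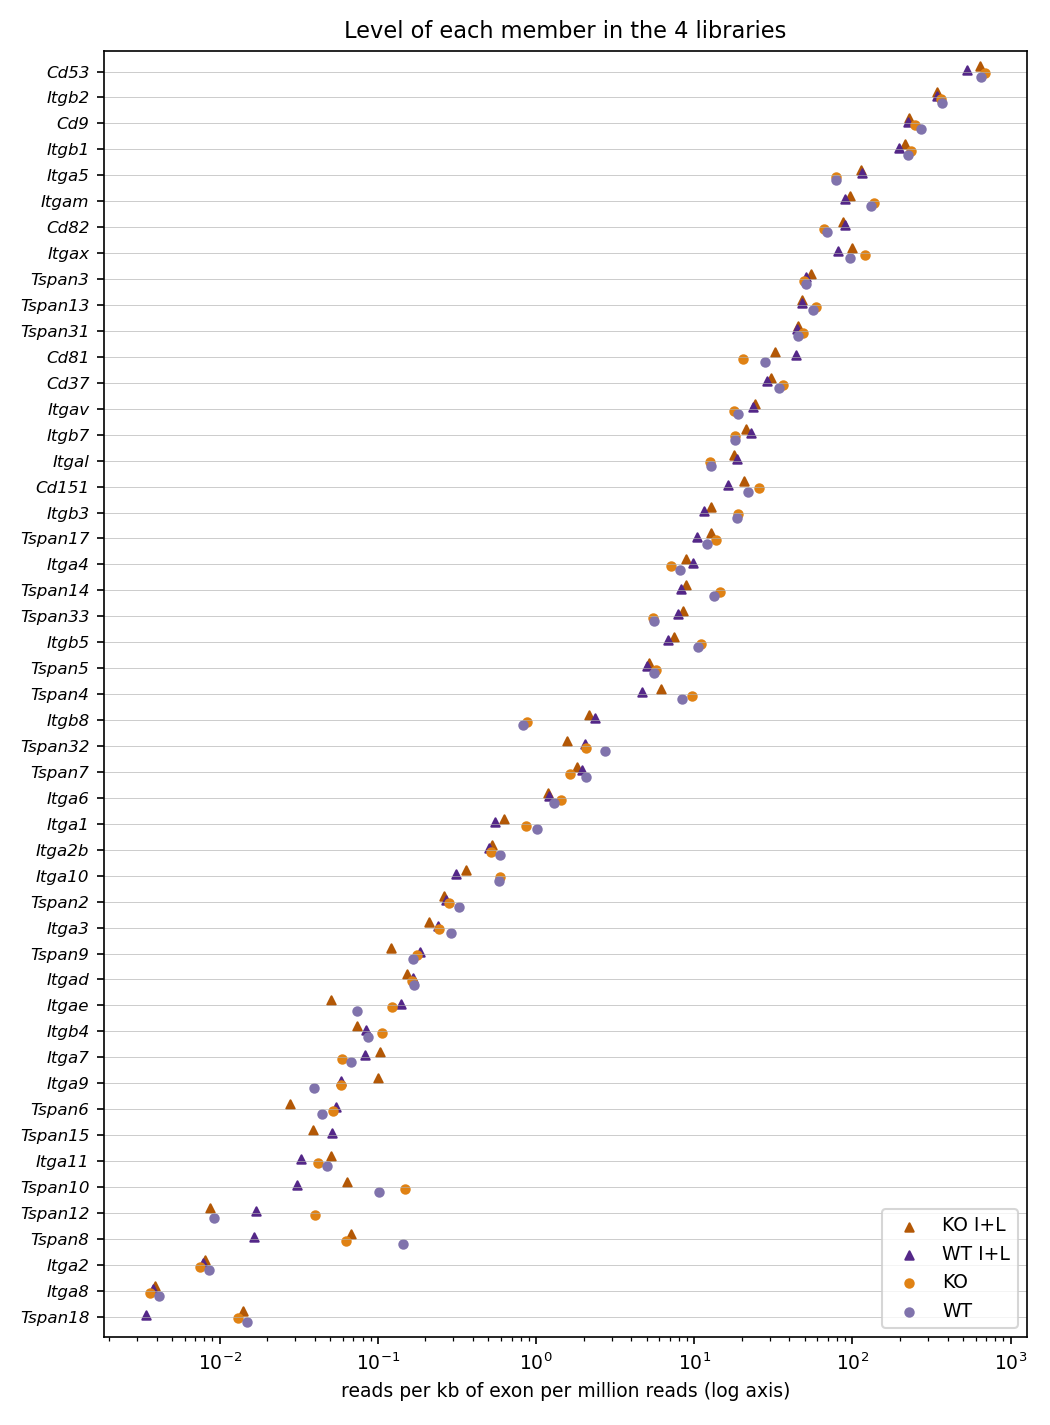
Level of each member in RPKM on a log axis, with the stimulated libraries (triangles) above the unstimulated ones (circles) in each row and KO (orange) above WT (purple). Rows are ordered by the level in the stimulated WT library; Cd53 leads in all 4 libraries, and 19 to 21 members per library reach 10 RPKM.

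The genotype ratio, log2 of KO over WT relative to the ratio of library totals, was small for every member with enough reads. The ratios in the authors' deposited tables are not scaled to these totals, and lie 0.036 lower in stimulated and 0.19 higher in unstimulated cells for every gene. In stimulated cells 7 members were called higher in KO, where 5.36% of all genes were, and 2 lower, where 6.54% of all genes were. In unstimulated cells 5 were called higher, where 4.7% of all genes were, and 4 lower, where 4.27% of all genes were. The calls gather among members with many reads, so genes with 100 reads or more over both libraries are the closer background. Of 32 such members in stimulated cells 9 were called, where 16.2% of such genes were, and of 34 in unstimulated cells 9 were called, where 12.2% of such genes were. None of the called members reached 1.5-fold in either state.

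Of the 11 members called in any state, 7 were called in both and in the same direction. Itgax, Itgam, Itgb1, Cd53 and Cd151 were called higher in both states, where 2.96% of the genes in both tables were. Cd81 and Itga4 were called lower in both, where 2.23% were, and no member was called in opposite directions, where 0.277% were. Over the 32 members with 100 reads or more in each state, 20 had the same sign in both (62.5%), against 67.0% of 11002 such genes. The members' median ratio was 0.036 in stimulated and 0.018 in unstimulated cells, against 0.0052 in stimulated and 0.0013 in unstimulated cells over every gene. By kind, the medians in stimulated cells were 0.036 for alpha chains, 0.00024 for beta chains and 0.033 for tetraspanins, and those in unstimulated cells -0.055 for alpha chains, 0.070 for beta chains and 0.059 for tetraspanins.

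**Figure D2:**
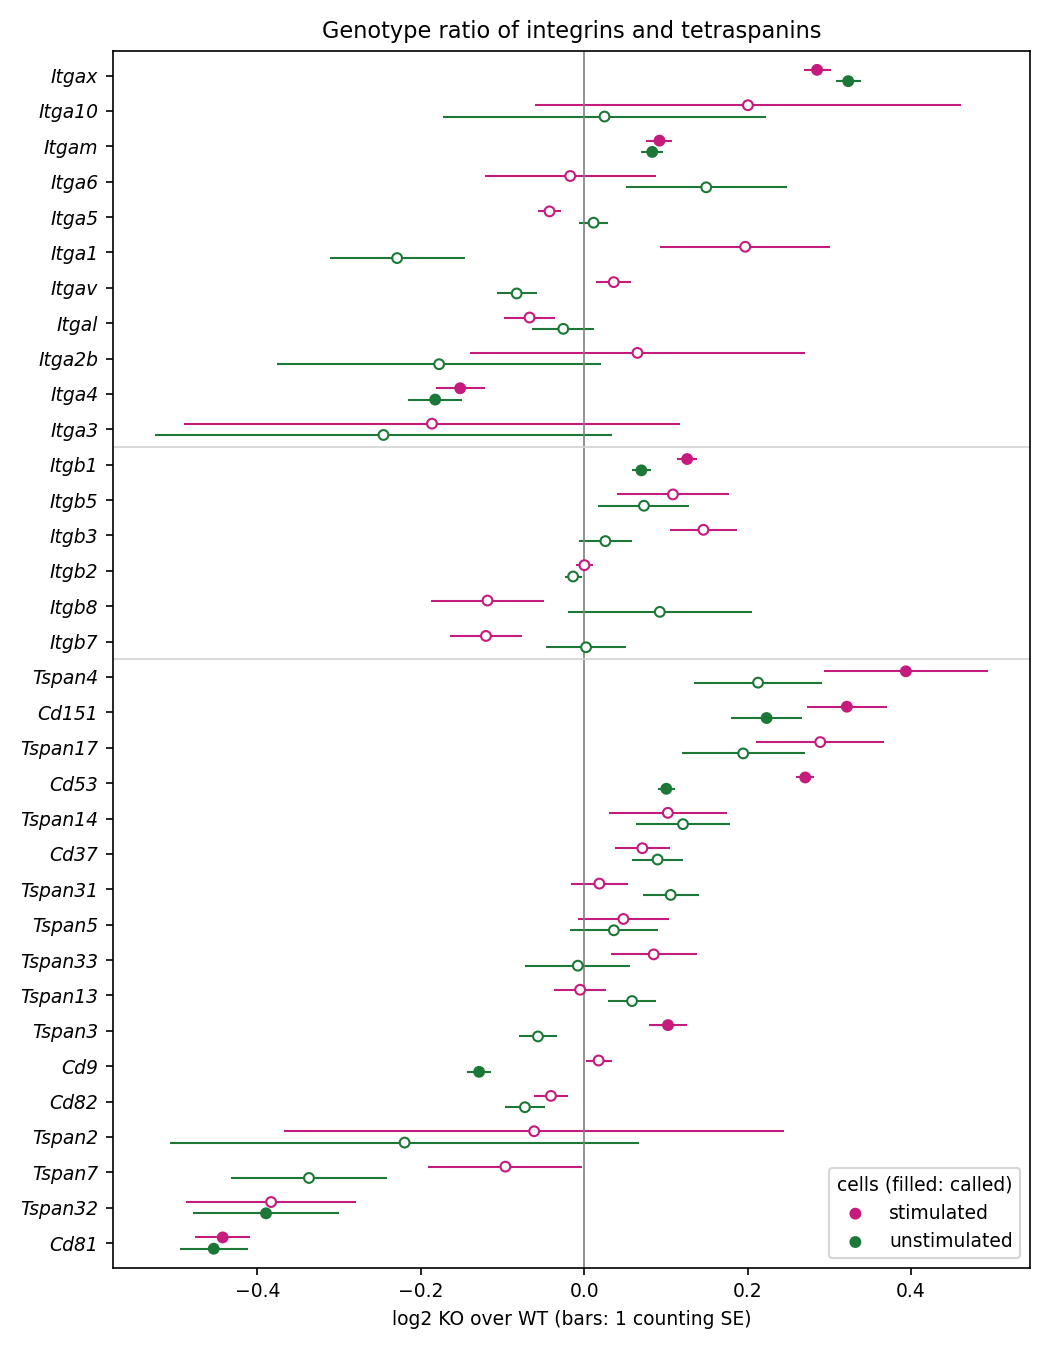
Log2 ratio of KO over WT with 1 counting SE for the members with 100 reads or more in either state, stimulated cells (pink) above unstimulated cells (green), filled where called, relative to the ratio of library totals. Alpha chains stand at the top, beta chains in the middle and tetraspanins at the bottom; Itgax and Cd151 are filled to the right in both states, and Cd81 and Itga4 to the left.

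Among the beta2 leukocyte integrins, Itgax and Itgam were called higher in KO cells in both states, and the beta chain they share was not called. Itgax, chr7:128129526-128150657, stood at 478 RPM in KO and 391 RPM in WT cells after stimulation, and at 575 RPM in KO and 461 RPM in WT cells without it. The KO library was higher in both states, by log2 ratios of 0.29 ± 0.017 and 0.32 ± 0.015 (Benjamini-Hochberg adjusted p of the authors' test = 1.3e-64 and 3.0e-98 in stimulated and unstimulated cells). The second of these p-values is at the smallest value the authors deposited for unstimulated cells and is thus an upper limit. For the same reason the unstimulated reads of Itgax are the lowest whole pair that gives the authors' deposited ratio at such a p. A multiple of that pair would give the same ratio, so its unstimulated levels, its responses to stimulation and all counting errors of its unstimulated values rest on that choice, while the ratio itself does not. Itgam, the alpha chain of the complement receptor on macrophages and dendritic cells, stood at 482 RPM in KO and 451 RPM in WT cells after stimulation, and at 691 RPM in KO and 655 RPM in WT cells without it. Its ratios, 0.092 ± 0.016 in stimulated and 0.083 ± 0.013 in unstimulated cells (adjusted p of the authors' test, 1.1e-07 and 8.7e-09), were smaller than those of Itgax and called in both states.

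Itgb2 stood at 1052 RPM in KO and 1049 RPM in WT cells after stimulation, and at 1107 RPM in KO and 1122 RPM in WT cells without it. Its ratios were 0.00024 ± 0.011 in stimulated and -0.014 ± 0.010 in unstimulated cells, with 95% counting intervals of -0.021 to 0.021 and -0.034 to 0.0067. Itgal, the alpha chain of LFA-1 that binds ICAM-1, stood at 117 RPM in KO and 122 RPM in WT cells after stimulation, and at 82.1 RPM in KO and 83.9 RPM in WT cells without it, and was not called in either state. Itgad, the remaining alpha chain of the family, had 24 reads in KO and 27 in WT cells after stimulation, and 28 in KO and 25 in WT cells without it. Of the chains of this family, Itgax had the ratio farthest from 0 in both states.

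Of the alpha4, alpha9, alphaE and beta7 chains, Itga4 was lower in KO cells in both states. Itga4, the alpha chain of the receptor for VCAM-1, stood at 124 RPM in KO and 137 RPM in WT cells after stimulation, and at 100.1 RPM in KO and 114 RPM in WT cells without it. The ratios were -0.15 ± 0.030 in stimulated and -0.18 ± 0.033 in unstimulated cells (Benjamini-Hochberg adjusted p of the authors' test = 5.7e-06 and 8.5e-07). As deposited, without scaling, the unstimulated ratio of Itga4 is 0.0089 in the authors' deposited table, on the other side of 0. Its partner chain Itgb7 had ratios of -0.12 ± 0.044 in stimulated and 0.0023 ± 0.049 in unstimulated cells and was not called. Itgae had 8 reads in KO and 23 in WT cells after stimulation, and 21 in KO and 11 in WT cells without it. The ratio was -1.49 ± 0.59 in stimulated and 0.74 ± 0.54 in unstimulated cells, neither of them called, and the side on which KO lay was not the same.

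Itgb1, the beta chain shared by the matrix receptors, was higher in KO cells in both states. It stood at 880 RPM in KO and 805 RPM in WT cells after stimulation, and at 961 RPM in KO and 919 RPM in WT cells without it, giving ratios of 0.13 ± 0.012 in stimulated and 0.070 ± 0.011 in unstimulated cells. None of its collagen-binding partners Itga1, Itga2, Itga10 and Itga11 was called in either state. Of the 7 listed chains that bind RGD motifs or belong to platelets (Itga5, Itga8, Itgav, Itga2b, Itgb3, Itgb5 and Itgb8), 0 were called in either state, with ratios from -0.12 to 0.15 in stimulated and from -0.19 to 0.093 in unstimulated cells. Stimulated Itgb3, at 0.15 ± 0.041, was just short of a call (Benjamini-Hochberg adjusted p of the authors' test = 0.0024). The 4 laminin-binding chains (Itga3, Itga6, Itga7 and Itgb4) likewise had 0 calls in either state, and in the stimulated libraries only 1 of them, Itga6, had 100 reads or more.

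Among the tetraspanins named by CD numbers, Cd53 and Cd151 were higher and Cd81 lower in KO cells in both states. Cd53 stood at 1118 RPM in KO and 925 RPM in WT cells after stimulation, and at 1202 RPM in KO and 1126 RPM in WT cells without it. The ratio was 0.27 ± 0.011 in stimulated and 0.10 ± 0.010 in unstimulated cells (Benjamini-Hochberg adjusted p of the authors' test = 6.8e-137 and 1.4e-21), a difference between states of 0.17 ± 0.015 that has a counting error only and was not tested. Unscaled, from the authors' deposited tables, that difference is -0.057. Cd151, a tetraspanin that binds laminin-binding integrins, stood at 56.2 RPM in KO and 44.9 RPM in WT cells after stimulation, and at 69.9 RPM in KO and 60.1 RPM in WT cells without it. Its ratios were 0.32 ± 0.049 in stimulated and 0.22 ± 0.043 in unstimulated cells, both called.

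Cd81, a tetraspanin known as a partner of integrins, had the lowest called ratio of all members. It stood at 92.8 RPM in KO and 126 RPM in WT cells after stimulation, and at 58.8 RPM in KO and 80.9 RPM in WT cells without it. The KO library was at 73.6% of WT in stimulated and 73.0% in unstimulated cells, log2 ratios of -0.44 ± 0.033 and -0.45 ± 0.042 for these states (Benjamini-Hochberg adjusted p of the authors' test = 4.8e-39 and 5.2e-26). Cd9, which gathers integrins and MHC class II molecules in dendritic cells, stood at 467 RPM in KO and 460 RPM in WT cells after stimulation, and at 509 RPM in KO and 558 RPM in WT cells without it. Its ratio was 0.018 ± 0.016 in stimulated cells, where it was not called, and -0.13 ± 0.015 in unstimulated cells, where it was called lower; in the authors' deposited table, unscaled, the unstimulated ratio is 0.063. Cd37 and Cd82, the other two of this group, were not called in either state, with ratios from -0.073 to 0.090.

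**Figure D3:**
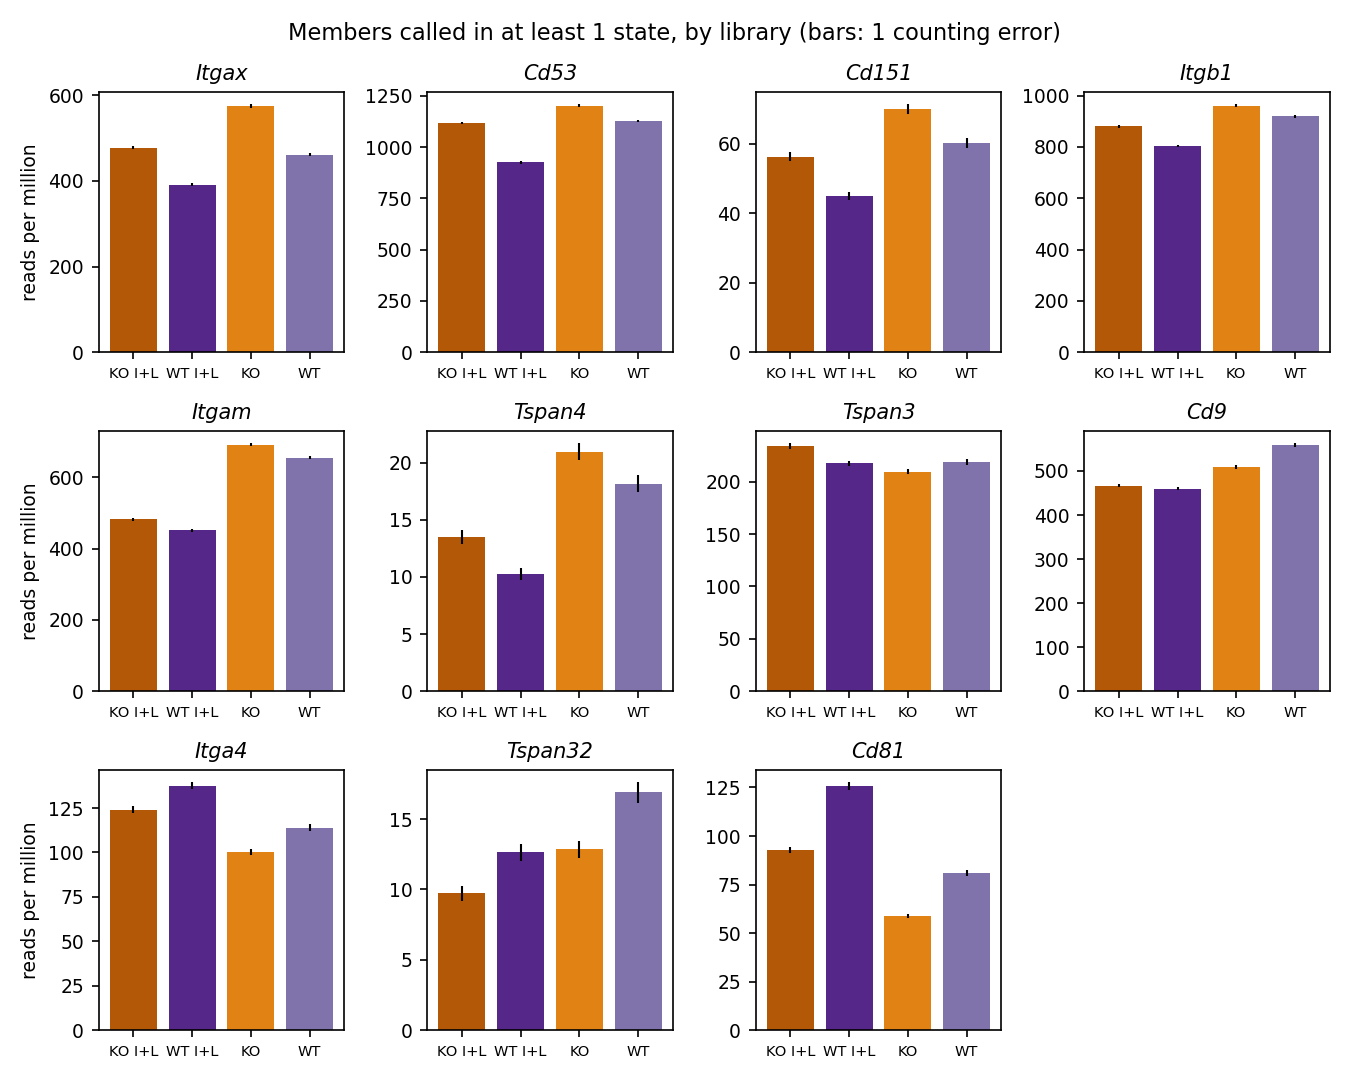
RPM in each library, with 1 counting error, for the 11 members called in at least 1 state; within a panel the stimulated KO and WT libraries (I+L) stand left of the unstimulated KO and WT libraries. Cd81 and Itga4 are lower in KO than in WT cells in both states and higher in the stimulated than in the unstimulated library of each genotype, and Itgax is higher in KO than in WT cells in both states.

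Among the tetraspanins with Tspan symbols, 3 were called in 1 state each. Tspan32, a tetraspanin of blood cells that associates with the platelet integrin, stood at 9.72 RPM in KO and 12.6 RPM in WT cells after stimulation, and at 12.8 RPM in KO and 16.9 RPM in WT cells without it. The ratio was -0.38 ± 0.10 in stimulated cells, just short of a call (Benjamini-Hochberg adjusted p of the authors' test = 0.0016), and -0.39 ± 0.090 in unstimulated cells (1.9e-04). The KO library was lower by nearly the same ratio in both states. Tspan4, known for its place in migrasomes, stood at 13.5 RPM in KO and 10.2 RPM in WT cells after stimulation, and at 20.9 RPM in KO and 18.1 RPM in WT cells without it. KO was higher in both states, by 0.39 ± 0.10 in stimulated cells, a call, and by 0.21 ± 0.078 in unstimulated cells, no call. Tspan3 stood at 234 RPM in KO and 218 RPM in WT cells after stimulation, and at 210 RPM in KO and 219 RPM in WT cells without it, ratios of 0.10 ± 0.023 in stimulated cells (called) and -0.057 ± 0.024 in unstimulated cells (not called, and 0.13 unscaled in the authors' deposited table).

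The tetraspanins of the TspanC8 group carry the protease ADAM10 to the cell surface. None of the 6 (Tspan5, Tspan10, Tspan14, Tspan15, Tspan17 and Tspan33) was called in stimulated cells and none of the 5 listed in unstimulated cells. The 4 of them with 100 reads or more had ratios from 0.048 to 0.29 in stimulated and from -0.0078 to 0.19 in unstimulated cells. Stimulated Tspan17, at 0.29 ± 0.079, was just short of a call (Benjamini-Hochberg adjusted p of the authors' test = 0.0018). Adam10 itself had ratios of -0.0023 ± 0.036 in stimulated and -0.018 ± 0.031 in unstimulated cells.

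Ratios of 2-fold or more occurred only in members with few reads, none of them called. In stimulated cells these were Itgae, Tspan8, Tspan10 and Tspan18, and in unstimulated cells Tspan8 and Tspan12. Tspan8 and Tspan18 each had 4 reads in KO and 1 read in WT cells after stimulation, a log2 ratio of 2.04 with a 95% exact interval of -1.30 to 7.66. Without stimulation Tspan8 had 4 reads in KO and 8 in WT cells, and Tspan18 had 4 reads in each. Tspan10 had 4 reads in KO and 2 in WT cells after stimulation, and 10 in KO and 6 in WT cells without it. Tspan12 had 1 read in KO and 2 in WT cells after stimulation, and 5 in KO and 1 in WT cells without it, and the intervals of these 4 tetraspanins take in 0. That of Itgae took in 0 in unstimulated cells, and ran from -2.86 to -0.28 in stimulated cells.

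Most members differed little between stimulated and unstimulated cells, and the responses of the 2 genotypes lay close together. The response is log2 of stimulated over unstimulated RPM within a genotype, for the 34 members with 50 reads or more in at least 1 of the genotype's libraries, and members are named for their response with their values already seen. It compares a pair of libraries with no replicate and has no test. Itgb8, the beta chain of the receptor that activates latent TGF-beta, stood at 23.9 RPM in stimulated KO cells and 9.70 RPM in unstimulated KO cells, and at 25.9 RPM in stimulated WT cells and 9.13 RPM in unstimulated WT cells. Its responses of 1.30 ± 0.091 in KO and 1.504 ± 0.096 in WT cells made it the 1 member that was 2-fold higher, where 2.59% of all genes in KO and 3.32% in WT cells were. No member was 2-fold lower, where 1.92% of genes in KO and 1.88% in WT cells were.

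Cd81 followed, with responses of 0.66 ± 0.040 in KO and 0.64 ± 0.035 in WT cells, so its level was higher after stimulation by nearly the same factor in both genotypes. Tspan33 had responses of 0.62 ± 0.057 in KO and 0.52 ± 0.060 in WT cells. Itga5 and Itgal were also higher after stimulation, by 0.52 ± 0.016 and 0.51 ± 0.034 in KO and by 0.56 ± 0.016 and 0.54 ± 0.035 in WT cells. Itgam and Itgax, which mark macrophages and dendritic cells, were lower after stimulation. The responses of Itgam were -0.52 ± 0.014 in KO and -0.54 ± 0.015 in WT cells, and those of Itgax, with the lowest unstimulated reads possible, -0.27 ± 0.015 in KO and -0.24 ± 0.017 in WT cells. Itgb3, the beta chain of the vitronectin receptor, had responses of -0.55 ± 0.036 in KO and -0.68 ± 0.038 in WT cells. Tspan14 and Tspan4 were lower after stimulation too, with responses for Tspan14 of -0.70 ± 0.063 in KO and -0.69 ± 0.067 in WT cells, and for Tspan4 of -0.64 ± 0.084 in KO and -0.83 ± 0.096 in WT cells. The lowest response in both genotypes was that of Itga10, at -0.71 ± 0.22 in KO and -0.90 ± 0.24 in WT cells, on 58 to 115 reads per library.

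Across the 34 members, 12 responses were positive and 22 negative in KO cells, and 9 positive and 25 negative in WT cells. The median response was -0.12 in KO and -0.21 in WT cells, against -0.15 over all genes in each genotype. Relative to that median gene, the members' medians were 0.030 in KO and -0.055 in WT cells. The KO and WT responses of a member differed by a median of 0.090 and at most by 0.44, in Itga1, whose response was -0.46 ± 0.093 in KO and -0.89 ± 0.095 in WT cells. For Cd53 the response was -0.10 ± 0.010 in KO and -0.28 ± 0.011 in WT cells, and for Cd9 it was -0.12 ± 0.015 in KO and -0.28 ± 0.016 in WT cells. These gaps are the same quantity, apart from the scaling, as the differences between states given above, since they come from the same 4 libraries.

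**Figure D4:**
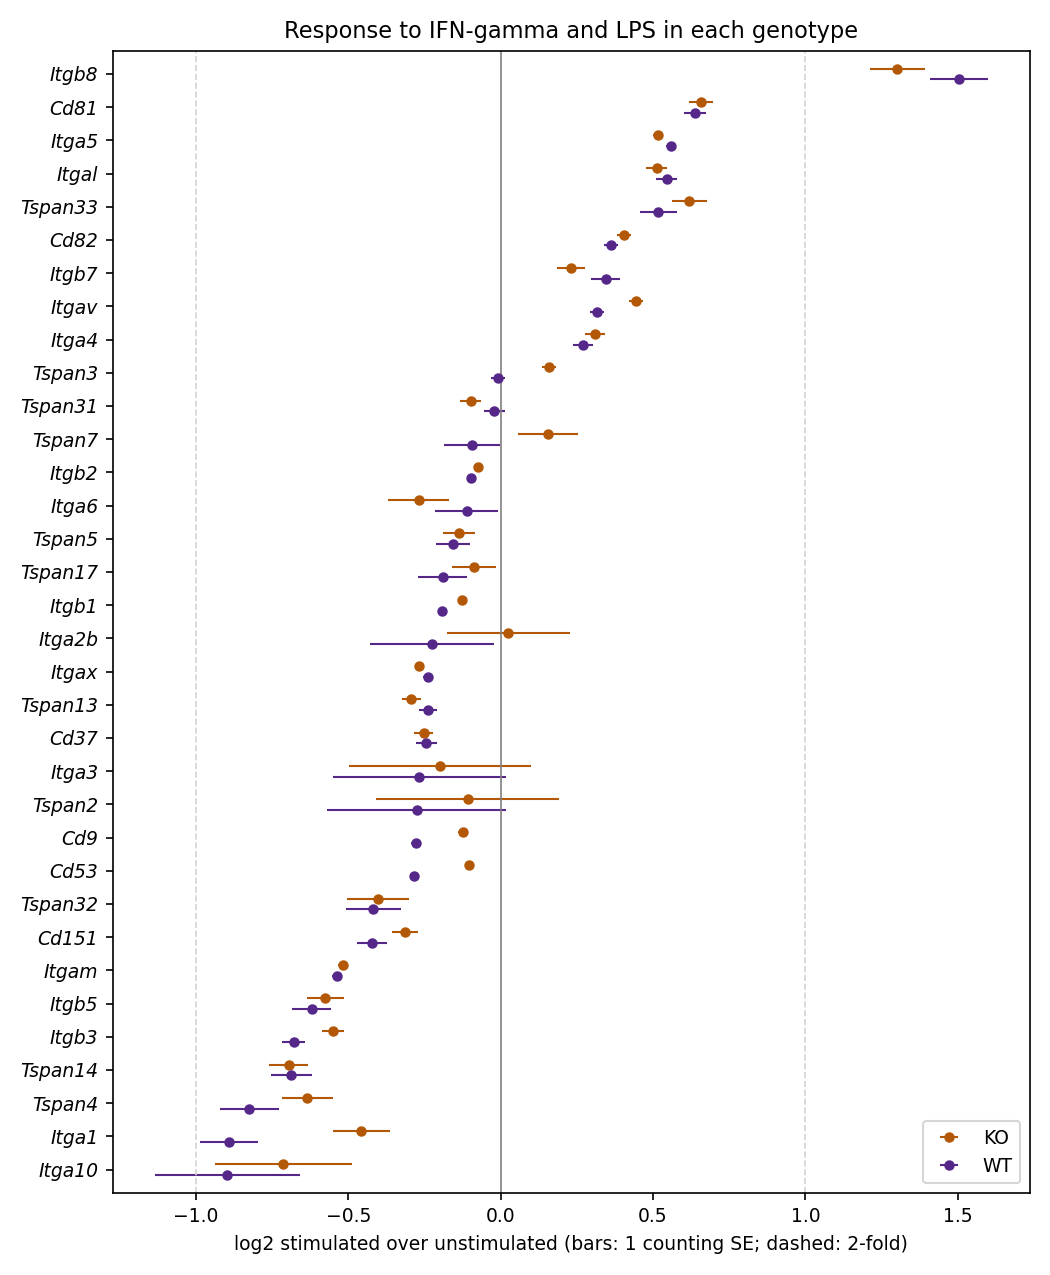
Log2 response to IFN-gamma and LPS, stimulated over unstimulated, with 1 counting SE for 34 members, KO (orange) above WT (purple) in each row; dashed lines mark 2-fold. Itgb8 lies beyond 2-fold on the right in both genotypes, and 22 of 34 KO and 25 of 34 WT values lie left of 0.

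Of the 11 members called in at least 1 state, 6 lie on chromosome 7: Itgam, Itgax, Cd81, Tspan32, Cd151 and Tspan4. This was noticed with the values known. Of the 38 members not called, 3 lie there. Among all genes with 100 reads or more, those on chromosome 7 were not called more often than others, at 16% against 16.4% in stimulated and 12% against 12.3% in unstimulated cells. Itgam (chr7:128062640-128118491), Itgax and Itgad (chr7:128173933-128205504) follow each other, with Trim72 and then Pycard as the nearest listed genes before Itgam. Trim72 had ratios of -0.64 ± 0.17 in stimulated and 0.35 ± 0.23 in unstimulated cells. Pycard had ratios of 0.12 ± 0.052 in stimulated and 0.21 ± 0.044 in unstimulated cells, the second of them called.

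Tspan32 (chr7:143004907-143019486) and Cd81 (chr7:143052750-143067930), both lower in KO cells, are separated by R74862, which overlaps the first bases of Cd81. R74862 had 48 reads in KO and 42 in WT cells after stimulation, and 34 in KO and 30 in WT cells without it, few beside the 3226 and 4495 reads of Cd81 in stimulated KO and WT cells. The next gene beyond Cd81, Tssc4, had ratios of -0.20 ± 0.084 in stimulated and -0.042 ± 0.090 in unstimulated cells and was not called. Cd151 (chr7:141467362-141471481) and Tspan4 (chr7:141475236-141493427), both higher in KO cells, lie on either side of Polr2l, with ratios of 0.23 ± 0.082 in stimulated and 0.013 ± 0.073 in unstimulated cells, not called. The end of Tspan4 overlaps Chid1, whose ratios of 0.16 ± 0.069 in stimulated and 0.22 ± 0.065 in unstimulated cells were not called either. The sources used here do not say whether the authors counted by strand, so reads in these overlaps cannot be told apart.

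The proteins that switch integrins on and tie them to actin showed calls on both sides. In stimulated cells 3 of 29 were called higher and 4 lower in KO, where 5.36% of all genes were higher and 6.54% lower. In unstimulated cells 3 were called higher and 3 lower, where 4.7% of all genes were higher and 4.27% lower. The list medians were 0.022 in stimulated and 0.041 in unstimulated cells. Fermt3, the kindlin of blood cells, had ratios of 0.13 ± 0.027 in stimulated and 0.16 ± 0.026 in unstimulated cells. Zyx, a protein of focal adhesions, had the largest ratio among the called genes of the list, at 0.36 ± 0.019 in stimulated and 0.28 ± 0.019 in unstimulated cells. On the lower side, Nedd9, a scaffold of integrin signalling, had ratios of -0.27 ± 0.045 in stimulated and -0.23 ± 0.049 in unstimulated cells. Apbb1ip, the adaptor that brings talin to the beta chain, had ratios of -0.23 ± 0.033 in stimulated and -0.26 ± 0.038 in unstimulated cells.

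Of the ligands of integrins, 6 of 23 were called higher and 5 lower in stimulated KO cells, where 5.36% of all genes were higher and 6.54% lower. In unstimulated KO cells 7 of 25 were called higher and 3 lower, where 4.7% of all genes were higher and 4.27% lower. The medians of the ligands were 0.19 in stimulated and 0.22 in unstimulated cells. Fn1, the fibronectin bound by Itga5 and Itgb1, had 1255 reads in KO and 478 in WT cells after stimulation, and 752 in KO and 313 in WT cells without it, ratios of 1.43 ± 0.078 in stimulated and 1.07 ± 0.097 in unstimulated cells. Tnc, the matrix protein tenascin, had 272 reads in KO and 55 in WT cells after stimulation and was called there alone. Its unstimulated reads were 154 in KO and 84 in WT cells, and the difference between states was not tested. The summed level of the stromal markers given above, in which Thy1 had the most reads, was likewise higher in KO cells in both states. Col3a1 was at 226 reads in KO and 3 in WT cells after stimulation and at 38 in KO and 4 in WT cells without it. Not every marker was higher: Pdgfrb was called lower after stimulation, at 150 reads in KO and 257 in WT cells, and the ratios of Acta2 and Lum lay below 0 in both states without a call. The part of these markers in the values of Fn1, Tnc, Itgb1 and Cd151 was not tested. Mfge8, which bridges dying cells to the receptor with Itgav, had ratios of 0.42 ± 0.013 in stimulated and 0.37 ± 0.017 in unstimulated cells. The authors' p of Mfge8, Thbs1 and C3 is capped in both states, so their reads and counting errors are likewise those of the lowest pair that fits the ratio and the cap.

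The ligand genes called lower in KO cells in both states were Icam1, Thbs1 and C3. Icam1, bound by Itgal and Itgam with Itgb2, had ratios of -0.060 ± 0.014 in stimulated and -0.13 ± 0.021 in unstimulated cells. Thbs1, a platelet and matrix protein, had 32553 reads in KO and 46103 in WT cells after stimulation, and 15070 in KO and 17601 in WT cells without it, ratios of -0.47 ± 0.010 in stimulated and -0.42 ± 0.016 in unstimulated cells. C3, the complement protein whose fragment is bound by Itgam and Itgax, had ratios of -0.33 ± 0.0098 in stimulated and -0.37 ± 0.015 in unstimulated cells. Vcam1, the ligand of Itga4, had ratios of -0.23 ± 0.049 in stimulated cells, a call, and -0.38 ± 0.099 in unstimulated cells, no call (Benjamini-Hochberg adjusted p of the authors' test = 0.0014).

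Of the proteins that tetraspanins bind, 2 of 13 were called higher in each state, 3 lower in stimulated and 2 lower in unstimulated cells. Of all genes, 5.36% were called higher and 6.54% lower in stimulated cells, and 4.7% higher and 4.27% lower in unstimulated cells. Hbegf, the growth factor precursor that Cd9 binds, had ratios of 0.57 ± 0.049 in stimulated and 0.56 ± 0.048 in unstimulated cells. Adam17, the protease that sheds it, had ratios of -0.22 ± 0.027 in stimulated and -0.33 ± 0.028 in unstimulated cells. Of 3 further tetraspanin genes outside the naming rule, Cd63, the tetraspanin of late endosomes, was called higher in stimulated cells (0.15 ± 0.020) and not in unstimulated cells (0.040 ± 0.019).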

How the data were processed

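RNA from RNeasy columns went into stranded TruSeq mRNA libraries, per the labels' protocols. FastQC 0.10.1, HTSeq 0.6.0 and the build mm10 are named in the submitters' processing notes; aligner, annotation and strand setting stay unnamed there. The authors deposited 2 tables of KO over WT, 1 per state, which hold a log2 ratio per gene, per the file headers. Judged by its values, the authors' other column holds −log10 p, which ends at 150 in stimulated and at 100 in unstimulated cells.

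From the values, the deposited log2 is the ratio of raw whole reads, and p a two-sided normal test around the log2 ratio of library totals, -0.036 in stimulated and 0.19 in unstimulated cells. Solving both gave whole reads in each library for 15310 of 15310 genes in stimulated and 15391 of 15394 in unstimulated cells (99.981%). The log2 was matched within 1e-09 and the reads, where p was not capped, within 2% of their estimate from p. The recovery of reads is an own derivation. At most 0.92% separated the estimate from p and the whole reads. A library at 0 reads enters as 0.5 (38 genes in stimulated and 47 in unstimulated cells). For the 50 genes in stimulated and 51 in unstimulated cells at the highest deposited −log10 p, Itgax and Golm1 of unstimulated cells among them, the lowest pair of whole reads that gives the deposited ratio and a p at or beyond that limit was taken; multiples of it would give the same ratio. The design had assumed that reads per library were not to be had; the tests were kept as designed.

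The main ratio is the deposited log2 minus that zero point, with a counting SE from the reads. The p-values are the authors', adjusted by Benjamini-Hochberg over a table, and hold counting error only. RPM divides by the reads of listed genes, RPKM also by exon length (GENCODE M21, GRCm38). Intervals are 95% exact binomial (Clopper-Pearson). The response to stimulation, with its minimum of 50 reads, was added after seeing the data. Promoters are RefSeq's for GRCm38.p6; 40 members matched by symbol. The recovery was tested on simulated data made with the same formula for p, so that test cannot show whether the authors' p follow it. Named by rule were all members called in a state, those at 2-fold or more, Itgax, Itgam, Itgb2, Itgal and Cd9, Golm1, and up to 4 called genes of each list; others were named with values seen. Members and lists (integrin activation, ligands, tetraspanin partners, further tetraspanins, and markers of dendritic cells, macrophages, stroma, endothelium, platelets, neutrophils, mast cells, T and NK cells, and B cells) were chosen with earlier results of these data known. Alternatives were the ratios as deposited, centring on the median gene, other thresholds and a precision filter. Computations used Python 3.11.15, numpy 2.4.6, pandas 2.3.3 and scipy 1.17.1.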

Additional observations from a re-analysis of the deposited data

Results flagged for a closer look

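Among the members called in a state or at 2-fold or more in one, 6 had KO on opposite sides of WT in the stimulated and the unstimulated state, and this was not tested, there being 1 library in each group. Members called in neither state did so too, such as Itga1, with a difference of 0.43 ± 0.13. The difference given here is the log2 ratio of KO over WT in stimulated minus that in unstimulated cells. For the tetraspanin Cd9 it was 0.1463 ± 0.022 (counting SE), and for Tspan3 0.1592 ± 0.033; each of these members was called in 1 of the 2 states. For Itgae, with 8 to 23 reads per library, it was -2.229 ± 0.80. Tspan8 (3.227 ± 1.84), Tspan18 (2.227 ± 1.91) and Tspan12 (-3.095 ± 2.37) rest on 1 to 8 reads per library, and the 95% exact intervals of their ratios in each state take in 0. Unscaled, in the authors' deposited tables, both sides turn for Cd9, at -0.018 in stimulated and 0.063 in unstimulated cells, and Tspan3 lies on 1 side, at 0.067 in stimulated and 0.13 in unstimulated cells.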

How the results depend on the processing

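No paired analysis was possible because each group has 1 library. With ratios as deposited, which are not scaled to library totals, 7 members in place of 5 were called higher and 2 in place of 4 lower in unstimulated cells, 1 in place of 2 lower in both states, and 1 in place of 0 in opposite directions. The unstimulated medians were then 0.2094 for all members, 0.2613 for beta chains and 0.2498 for tetraspanins, and the median turned for alpha chains in unstimulated cells (0.1361) and, in stimulated cells, for beta chains (-0.03576) and tetraspanins (-0.002768). On that scale the direction turned for Cd9 (-0.01836 in stimulated, 0.06262 in unstimulated cells), Itgb2 (-0.03576 and 0.1776 in the same states) and, in unstimulated cells, Itga4 (0.008864), Itgal (0.1657) and Tspan3 (0.1346). The differences between states turned for Itga4 (-0.1967), Itgam (-0.2184), Itgb1 (-0.1713), Itgb2 (-0.2134), Cd151 (-0.129), Cd53 (-0.05717), Cd81 (-0.2163), Cd9 (-0.08098), Tspan3 (-0.0681), Tspan32 (-0.2211) and Tspan4 (-0.04632). By construction, the shifts are the zero points of the 2 tables. Centring on the median gene turned Itgb2 in stimulated cells (-0.004954), and with it the beta chain median there, which is the value of Itgb2, and no other of the 69 results computed that way. At an adjusted p under 0.05, 9 members were higher and 6 lower in stimulated cells, and 8 were higher and 8 lower in unstimulated cells. The shares of all genes at that threshold, with ratios as deposited and at a 1.5-fold response are not given here. Member counts under these settings are therefore not read as a result about the members. Asking for 1.5-fold besides left 0 members higher, 0 lower, and 0 higher or lower in both states. For the response, 1.5-fold in place of 2-fold gave 3 members higher and 3 lower in KO cells, and 2 higher and 6 lower in WT cells; a minimum of 10 reads gave 2 lower in KO cells, and the other 3 counts kept their value. Leaving out imprecise genes changed no count and turned no direction among the 41 results it could be applied to, while medians moved, in stimulated cells to 0.054 in place of 0.00024 for beta chains, 0.057 in place of 0.036 for all members and 0.060 in place of 0.033 for tetraspanins, and in unstimulated cells to -0.026 in place of -0.055 for alpha chains. No setting adds replicates: with 1 library per group, spread between mice or cultures is not measured.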

Other observations

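Markers of other cells that such cultures can hold were counted beside the integrins and tetraspanins. For comparison, 5.36% of all genes were called higher and 6.54% lower in stimulated cells, and 4.7% higher and 4.27% lower in unstimulated cells. Of 11 macrophage markers, 5 were called higher in KO and 2 lower in stimulated cells, and 7 higher and 2 lower in unstimulated cells. On the lower side in both states were the receptor genes Csf1r and Cd14, and the summed level of the list was lower in KO cells in both. Of 8 endothelial markers, 0 were higher and 2 lower in stimulated cells, and 0 higher and 1 lower in unstimulated cells; Vwf was lower in both. The platelet factor gene Pf4 was the 1 of 7 platelet markers called in stimulated cells (0.35 ± 0.052), with 0 of 8 called in unstimulated cells. Of neutrophil markers, 0 of 8 were higher and 1 lower in stimulated cells, and 0 of 10 higher and 2 lower in unstimulated cells, Lcn2 having ratios of -0.24 ± 0.019 in stimulated and -0.37 ± 0.025 in unstimulated cells. Hdc was the 1 mast cell and basophil marker called, lower in both states. Of 9 T and NK cell markers, Gzmb was higher in stimulated and Gzma in unstimulated cells. None of 5 B cell markers was called, and all 5 had 84 reads or fewer per library. The part of these cells in the values of the members was not tested.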
